A study of Mus musculus with 6 samples.

Results

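The interleukin-1 family of cytokines was followed in spontaneous liver tumors through 10 genes, the ligands Il33, Il1a, Il1b and Il18, the antagonist Il1rn and the receptors Il1rl1, Il1r1, Il1r2, Il1rap and Il18r1. They were found by gene symbol among the non-control probes of the array, which carries 15 probes for these 10 genes of 55681 probes for 34741 named genes in all. The comparison set 3 normal livers against 3 liver tumors, which carry a mutation of Ha-ras, all from male C3H/HeN mice of 74 to 75 weeks that belonged to a control group on a standard diet, without any treatment. Tumors arise spontaneously in this strain with age, and RNA was prepared from bulk tissue, in which tumor cells, vessels, stroma and immune cells are measured together. Each Cy3-labelled RNA had a 1-color SurePrint G3 Mouse GE array to itself. Nothing in the labels ties a sample to an animal, so the p-values measure the spread between these samples, which may be technical in part.

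Cytokines of this family share a fold and a way of signalling. A ligand binds its own receptor chain, the accessory chain Il1rap (or Il18rap for interleukin-18) joins, and the paired intracellular domains recruit Myd88 and Irak kinases, which leads to NF-kB activation. Il1b and Il18 are made as precursors that caspase-1 cuts, whereas Il33 is stored in the nucleus of endothelial, epithelial and stromal cells and is released when cells are damaged. Braking is built in through the receptor antagonist Il1rn, the decoy receptor Il1r2, the interleukin-18 trap Il18bp and the inhibitory receptor Sigirr.

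The genes of the pair that rose, Il33 and Il1rn, are shown here by the 250 bases before annotated start sites (RefSeq windows of GRCm38.p6, plus strand). Capitals mark matches on either strand to 4 motifs, which are the NF-kB motif, TGANTCA (bound by AP-1), TTNCNNAA (a loose C/EBP core) and TATAAA, and no marked matches overlap in these windows. The first window of Il33 lies at chr19:29924863-29925112, the second at chr19:29945540-29945789, and the first of 3 windows of Il1rn at chr2:24336610-24336859.
Il33, first start: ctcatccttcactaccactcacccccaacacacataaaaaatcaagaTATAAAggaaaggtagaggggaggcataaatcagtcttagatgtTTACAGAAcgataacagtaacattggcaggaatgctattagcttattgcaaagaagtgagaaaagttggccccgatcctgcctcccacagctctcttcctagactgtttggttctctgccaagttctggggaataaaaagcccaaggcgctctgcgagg
Il33, second start: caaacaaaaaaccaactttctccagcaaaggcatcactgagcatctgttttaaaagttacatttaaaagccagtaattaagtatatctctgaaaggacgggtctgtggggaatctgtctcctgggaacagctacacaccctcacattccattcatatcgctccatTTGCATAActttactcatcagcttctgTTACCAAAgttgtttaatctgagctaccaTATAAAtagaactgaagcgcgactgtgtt
Il1rn, first start: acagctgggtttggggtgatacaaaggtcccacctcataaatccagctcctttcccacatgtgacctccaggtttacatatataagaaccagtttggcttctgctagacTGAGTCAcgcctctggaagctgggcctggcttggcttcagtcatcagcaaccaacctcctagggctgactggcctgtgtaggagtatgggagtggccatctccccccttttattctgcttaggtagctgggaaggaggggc
Neither window of Il33 holds the NF-kB motif or TGANTCA. Il33 has TATAAA in both windows, at -203 to -198 and at -29 to -24 from the start site, and TTNCNNAA at -159 to -152 in the first and at -85 to -78 and -58 to -51 in the second. The first window of Il1rn holds TGANTCA once, at -141 to -135. Its other windows, which overlap each other and are not printed, hold TTNCNNAA and none of the other motifs. Of 32851 RefSeq windows of the same length, 7.25% hold the NF-kB motif, 6.75% TGANTCA, 36.8% TTNCNNAA and 12.4% TATAAA. Among the windows of the other members, the NF-kB motif is found once, before a start site of Il1r1, and TGANTCA once, before Il1a.

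Facts of the arrays that touch all results were as follows. The share of spots well above background lay between 44.7% and 48.9%, and 0 spots were saturated. All normal livers were scanned on slide 1 and all tumors on slide 2, with a median local background of 42 to 45 and of 22 to 23, and the effect of the slide and that of the tissue cannot be told apart. An expression value is the processed signal divided by the 75th percentile of its array, and the median log2 fold change of all genes tested was -0.13, against which the smaller changes below have to be read. Of 18566 genes tested with limma, 34.2% were called at an adjusted p under 0.05, 13.1% higher and 21.0% lower in the tumors. The groups did not overlap in 51.8% of the genes tested. In bulk tissue, fewer cells of a type and less RNA per cell cannot be told apart.

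Of the 10 genes, 6 were well above background in all samples of at least 1 group and were tested, through 7 probes. Il33 and Il1rn were higher in the tumors, Il18, Il1r1 and Il1rap were lower, and Il1b was not called. These are 5 calls among 6 tested genes, beside 34.2% of all genes tested. The members were chosen with earlier results of these data known, and Il1rn was tested through the tumors only. The count therefore does not measure an enrichment. In the 5 called genes the groups did not overlap, as in 51.8% of all genes tested. Groups that do not overlap have a two-sided p of 0.1 in an exact permutation test. A design of 3 and 3 samples cannot go below it. Neither adds support to the calls, as both rest on the same values.

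**Figure D1:**
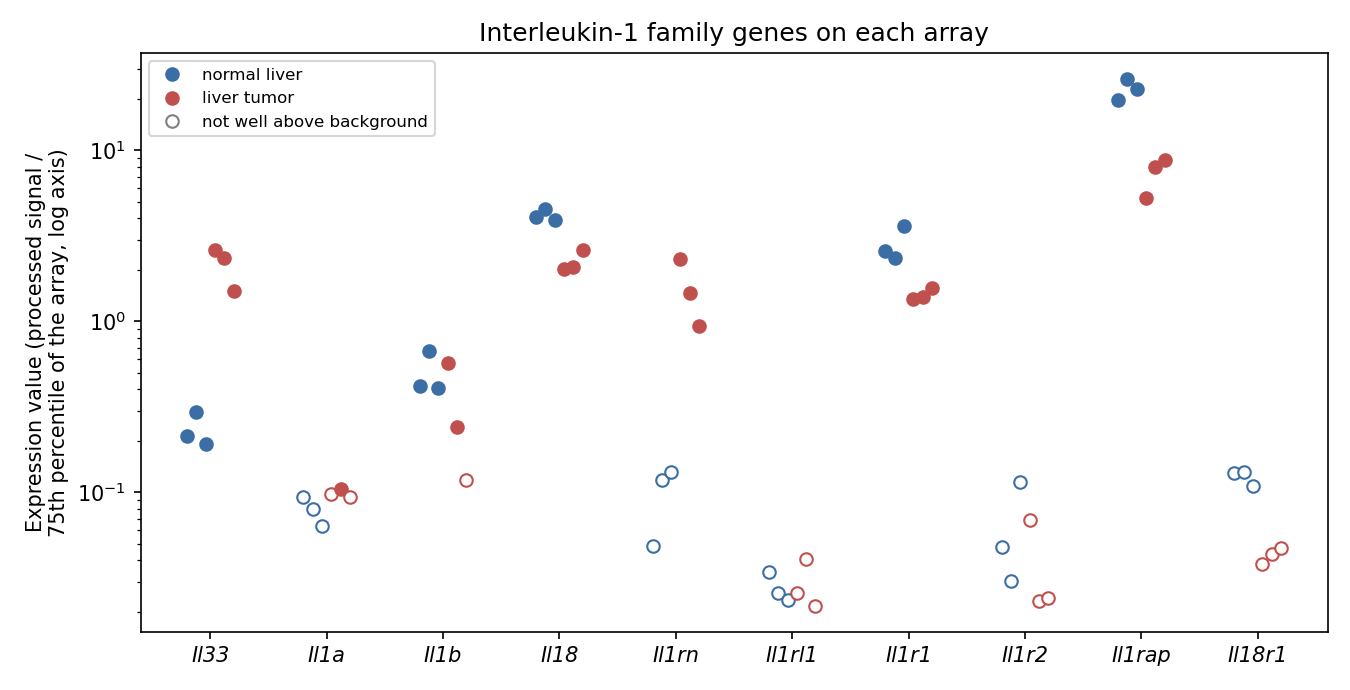
Expression value of each of the 10 genes (log axis, processed signal over the 75th percentile of the array) on the arrays of 3 normal livers (blue) and 3 liver tumors (red), by the gene's representing probe, with open circles where the probe was not well above background. Il33 and Il1rn lie above, and Il18, Il1r1 and Il1rap below, the normal livers in each tumor, while Il1a, Il1rl1, Il1r2 and Il18r1 were mostly or wholly not above background.

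Among the ligands, Il33 had expression values of 0.213, 0.294 and 0.192 in the normal livers and of 2.62, 2.33 and 1.50 in the tumors. The lowest tumor therefore read several times the highest normal liver, with tumor 1 highest and tumor 3 lowest. The ratio was 9.13 (95% confidence interval 5.93 to 14.0, log2 fold change 3.19, standard error 0.26, limma's adjusted p = 6.18e-04). With the normexp correction, in which an offset is added and dim signals are drawn together, the log2 fold change was 1.96. The gene has a single probe, at chr19:30035101-30035160 on mm9, the assembly of the array design. The gene lies at chr19:29925113-29960718 of GRCm38.p6.

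Il18, which drives interferon-gamma production in T and NK cells, went the other way. Its values were 4.08, 4.55 and 3.88 in the normal livers and 2.01, 2.07 and 2.61 in the tumors. The log2 fold change was -0.91 (standard error 0.14, limma's adjusted p = 0.00576), so the tumors held about 0.533 of the normal level, in each tumor below each normal liver. Il1b, the inflammatory ligand made mainly by myeloid cells, read 0.421, 0.669 and 0.405 in the normal livers and 0.569, 0.241 and 0.118 in the tumors. Tumor 1 lay among the normal livers and tumor 3 was not well above background. The log2 fold change of -0.94 had a 95% confidence interval of -2.26 to 0.39 (limma's adjusted p = 0.236), and it was -1.52 without tumor 1 (limma's adjusted p = 0.0337). Il1a, an alarmin as Il33 is, was well above background in tumor 2 only, at 0.104. On the other arrays its probe read 0.0637 to 0.0971, and it was not tested.

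The antagonist Il1rn occupies Il1r1 without signalling. Its probe read 0.0487, 0.118 and 0.131 in the normal livers, in each case not well above background, and 2.31, 1.46 and 0.943 in the tumors. The tumors had a mean of 1.57 ± 0.691 (SD, n = 3), against a reading of 0.0992 ± 0.0442 (SD, n = 3) for normal liver. Every tumor lay far above the normal livers, with tumor 1 highest as for Il33. Only a bound can be given. On each normal array the probe's own value, or the dimmest value that counted as well above background if that was higher, was taken, and the mean log2 of the tumors was set against the mean log2 of these. The tumors were thus at least 10.9-fold higher in Il1rn (adjusted p = 0.00223 by limma). The same change from no normal liver to all tumors being well above background was seen in 2.63% of the genes tested. With normexp the fitted log2 fold change was 1.75, below the bound of 3.45 on that scale. The probe lies at chr2:24205094-24205153 on mm9, and the gene at chr2:24336860-24351491 of GRCm38.p6.

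Il33 and both interleukin-1 ligands need the accessory chain Il1rap for signalling. Of the tested receptor genes, Il1rap fell furthest, as read by its brightest probe. The values of its brightest probe were 19.7, 25.9 and 22.8 in the normal livers and 5.28, 7.96 and 8.80 in the tumors. The normal livers were 3.16 times the tumors (log2 fold change -1.66, standard error 0.22, limma's adjusted p = 0.00333), and tumor 1, highest in Il33 and Il1rn, was lowest here. The array design lists another transcript for each of the 3 probes of Il1rap. The second tested probe was lower as well, from 0.243, 0.284 and 0.184 to 0.0916, 0.132 and 0.0651, with 1 of 3 tumors well above background (log2 fold change -1.34, standard error 0.29, limma's adjusted p = 0.0154). The remaining probe was dim on every array, with readings of 0.0237 to 0.115, and could not be tested. The falls thus hold for the transcripts of the 2 tested probes, and whether that of the dim probe changed is unknown. Which of the 3 transcripts encode the signalling chain was not examined, so a fall of that chain itself is not shown.

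Il1r1, the signalling receptor of Il1a and Il1b, read 2.57, 2.34 and 3.58 in the normal livers and 1.34, 1.39 and 1.57 in the tumors. The tumors were close to each other and each lay below the normal livers. The log2 fold change was -0.96 (standard error 0.18, limma's adjusted p = 0.0101). The decoy receptor Il1r2 read 0.0305 to 0.115 in the normal livers and 0.0232 to 0.0691 in the tumors, not well above background on any array.

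Il1rl1 encodes ST2, the receptor of Il33, in a membrane-bound and a soluble form. None of its 3 probes, which are listed for both kinds of transcript, was well above background on any array, and their values lay between 0.0217 and 0.0409. In these tissues the ligand was thus measured while no signal of its receptor above background was detectable, which is a limit of the array and not a measured absence. Il18r1, the receptor chain of Il18, was also not well above background with either probe. Its brighter probe read 0.109 to 0.132 in the normal livers and 0.0383 to 0.0472 in the tumors, values below the lowest signal called well above background on the same array in each tumor. It was called lower only when the filter on dim probes was dropped.

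**Figure D2:**
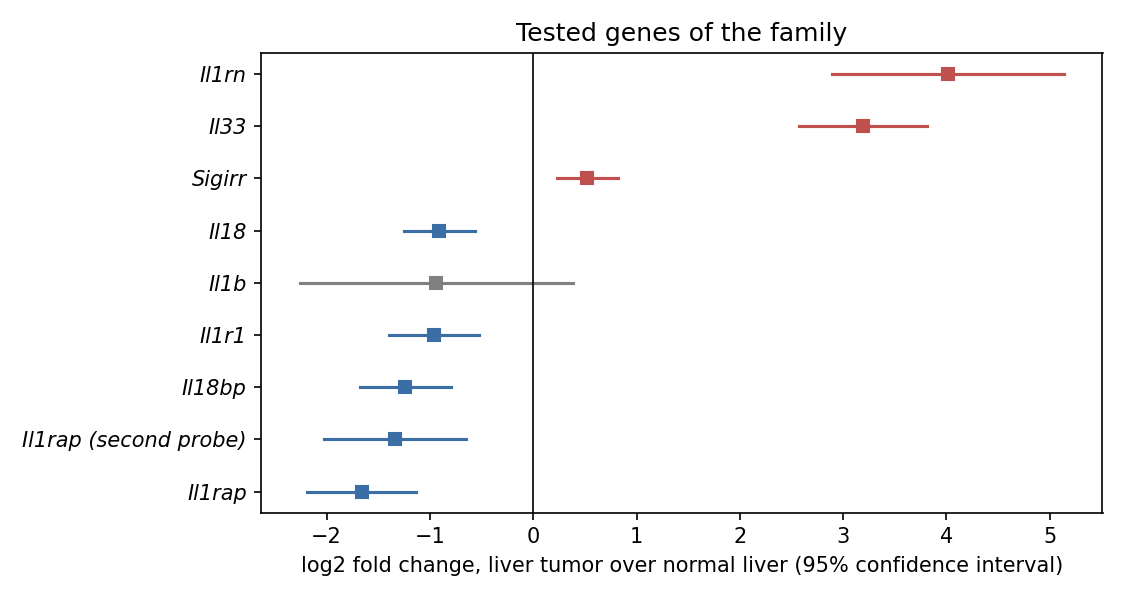
Log2 fold change of tumor over normal liver (squares) with its 95% confidence interval (lines) for the tested probes of the family and of Il18bp and Sigirr, called higher in red, called lower in blue and not called in grey. Il33 at 3.19 and Il1rn stand to the right, Il1rap at -1.66 to the left, and the interval of Il1b crosses 0. The point and interval of Il1rn are fitted values of a probe dim in the normal livers. Its bound of 3.45 is one on the means and leaves out the spread between samples.

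The other genes of the family were taken from a list of 11. Of these, Il18bp and Sigirr were tested and both were called, 1 in each direction, beside 34.2% of all genes tested. Il18bp, a secreted trap of Il18, read 4.09, 3.39 and 5.35 in the normal livers and 1.82, 1.64 and 1.89 in the tumors (log2 fold change -1.24, standard error 0.18, limma's adjusted p = 0.00467), so that Il18 and its trap were both lower in each tumor. Sigirr, an inhibitory receptor of the family, read 9.52, 9.66 and 7.98 in the normal livers and 13.6, 13.3 and 12.1 in the tumors (log2 fold change 0.53, standard error 0.12, limma's adjusted p = 0.0210). The other 9 genes, which are the interleukin-36 ligands Il36a, Il36b and Il36g with their antagonist Il36rn, Il1f10, the receptors Il1rl2 and Il18rap, and Il1rapl1 and Il1rapl2, were not tested. Only Il36g was well above background anywhere, in tumor 1 at 0.177.

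Upstream of the ligands, a list of 13 processing proteases and inflammasome genes had 9 tested genes. Of these, 3 were higher, 1 was lower and 5 were not called, beside 13.1% higher and 21.0% lower of all genes tested. The median log2 fold change was 0.11, beside -0.13 over all genes tested. Casp4, the caspase that senses cytosolic lipopolysaccharide, changed most, from 1.12, 1.10 and 0.861 in the normal livers to 7.36, 3.91 and 3.52 in the tumors (log2 fold change 2.19, standard error 0.29, limma's adjusted p = 0.00345), and its second probe gave 2.37. Casp1, which cuts the precursors of Il1b and Il18, had 1.41, 1.36 and 1.84 against 2.94, 1.81 and 2.62 and was not called (limma's adjusted p = 0.0588). Prtn3, a granule protease that can cut Il33, was called at a low level with a log2 fold change of 1.14 and was well above background in 1 of 3 normal livers. The inflammasome sensors Nlrp3, Nlrc4 and Aim2 were not well above background on any array.

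Downstream of the receptors, 16 of 17 adaptors and kinases were tested. By limma 0 were higher, 4 were lower and 12 were not called, with a median of -0.19. Of all genes tested, 13.1% were called higher and 21.0% lower, with a median of -0.13. At an unadjusted p under 0.05, limma had 0 higher and 5 lower, and the methods' t-test, adjusted or not, 0 higher and 6 lower. The calls were small, with log2 fold changes of -0.91 for Ikbkg, the regulatory subunit of the IKK complex, -0.56 for Tollip, -0.47 for the IKK kinase Chuk and -0.39 for Irak1, whose other probes gave -0.17 and -0.11 and were not called. The central adaptor Myd88 had a log2 fold change of -0.14 and the NF-kB subunit Rela of -0.12, both not called. The log2 fold changes of the 16 genes lay between -0.91 and 0.54, a narrower range than that of the ligands, the antagonist and the receptors.

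Of 18 early NF-kB response genes, 13 were tested. By limma 5 were higher, 0 were lower and 8 were not called, beside 13.1% higher and 21.0% lower of all genes tested. The median was 0.50. At an unadjusted p under 0.05, limma had 7 higher and 1 lower, and the methods' t-test 3 higher and 0 lower, of which 1 was left after adjustment. Relb, a subunit of the non-canonical NF-kB dimer, had the largest change, from 0.430, 0.313 and 0.537 to 1.91, 1.35 and 1.30 (log2 fold change 1.85, standard error 0.24, limma's adjusted p = 0.00326). A second probe of Relb gave 1.82, and the remaining probe gave -0.45 and was not called, so the probes disagree. The neutrophil attractant Cxcl1 read 1.15, 1.08 and 2.29 in the normal livers and 8.49, 4.90 and 2.95 in the tumors (log2 fold change 1.81, standard error 0.45, limma's adjusted p = 0.0245). Nfkb2, the partner of Relb, and the adhesion molecule Icam1 had log2 fold changes of 1.17 and 1.14. Vcam1, an adhesion molecule too and the remaining called gene, had 1.06, and it is named after its value was seen. Nfkbia, the inhibitor that NF-kB induces first, had -0.84 and was not called, and Il6, Cxcl2, Ccl20, Sele and Ptgs2 were not well above background on any array.

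The acute-phase genes, which interleukin-1 and interleukin-6 raise in hepatocytes, were all tested. Of the 14 genes, 2 were higher, 7 were lower and 5 were not called, beside 13.1% higher and 21.0% lower of all genes tested. The median was -0.38. Lcn2, an iron-scavenging secreted protein, read 3.80, 3.03 and 1.91 in the normal livers and 201, 66.6 and 97.0 in the tumors (log2 fold change 5.29, standard error 0.44, limma's adjusted p = 6.85e-04). Orm1 and Orm2, which encode plasma carrier proteins, had log2 fold changes of -2.76 and -2.82, and Saa2 of -1.70. Orm1 and Orm2, and Saa1 and Saa2, are near-identical copies that a probe may not separate. The list was therefore split between a strong rise of Lcn2 and falls of most of the other called genes.

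**Figure D3:**
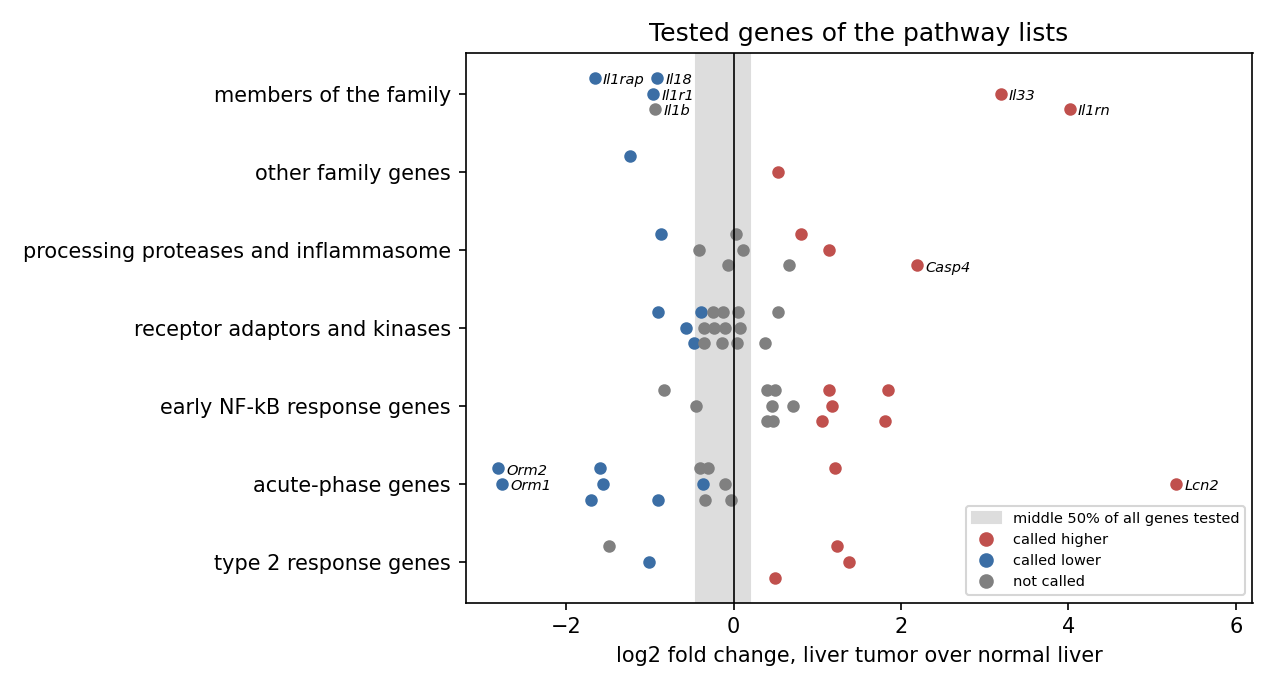
Log2 fold change of tumor over normal liver for each tested gene of the pathway lists (one point per gene, called higher in red, called lower in blue, not called in grey), with the middle 50% of all genes tested shaded from -0.45 to 0.20. Il33, Il1rn and Lcn2 lie farthest right, the adaptors and kinases lie near the shaded band, and Orm1 and Orm2 lie farthest left.

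Il33 acts through ST2 on type 2 innate lymphoid cells, mast cells, eosinophils and regulatory T cells. Of 19 type 2 response genes, 5 were tested. Of these, 3 were higher, 1 was lower and 1 was not called, beside 13.1% higher and 21.0% lower of all genes tested. The gene not called, Ccl24, had a log2 fold change of -1.49 (limma's adjusted p = 0.0737), and it is named after its value was seen. Chil3, a chitinase-like protein of macrophages, read 0.583, 0.499 and 0.397 in the normal livers and 1.21, 1.29 and 1.32 in the tumors (log2 fold change 1.38, standard error 0.16, limma's adjusted p = 0.00215). Il17rb, a receptor chain of interleukin-25, had 1.24 (limma's adjusted p = 0.00434), Rora, a transcription factor that hepatocytes also express, had 0.49, and Icos, a costimulatory receptor of T cells, had -1.01. Of the list, 12 genes were not well above background on any array. Among them were the cytokines Il4, Il5 and Il13 and the regulatory T cell factor Foxp3. Areg was well above background in tumor 1 only, at 0.145. Of 10 mast cell and basophil markers, 8 were not well above background on any array, Cpa3, Fcer1a and Mcpt8 included. Of 4 eosinophil markers, only Ccr3, and Siglecf by its second probe in tumor 1, were well above background on some array. Their summed values were 1.43 to 1.58 in the normal livers and 0.800 to 1.25 in the tumors for mast cells and basophils. For eosinophils they were 0.230 to 0.302 and 0.324 to 0.497, near background in both groups. Most of the mast cell and basophil sum came from Kit and Tpsb2, the tested genes of that list, both not called. Kit read 0.564, 0.811 and 0.841 in the normal livers and 0.501, 0.528 and 0.430 in the tumors (limma's adjusted p = 0.0526). Tpsb2 had a log2 fold change of -0.77 (limma's adjusted p = 0.266).

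Levels of markers of the cells that make or receive these cytokines also moved. The marker calls have to be read beside 13.1% higher and 21.0% lower of all genes tested. Stellate cell and fibroblast markers summed to 101 to 121 in the normal livers and to 30.2 to 55.0 in the tumors. Most of the sum came from 1 probe of Dcn (75.8, 77.3 and 96.4 against 17.8, 27.8 and 37.7). By limma, 8 of 12 genes were called lower and 2 higher. The higher ones were Col1a1 and Reln, with log2 fold changes of 1.58 and 0.72. Kupffer cell and macrophage markers summed to 103 to 177 and to 52.5 to 86.5, with 6 of 9 tested genes called lower and 0 higher by limma (8 and 0 at an unadjusted p under 0.05, and 5 and 0 by the methods' t-test, or 2 and 0 after adjustment), beside the lower values of Il18, Il18bp and Il1r1. Endothelial markers summed to 142 to 157 and to 132 to 146, with 2 of 10 called lower and 1 higher, and hepatocyte markers, which mark the labelled tissue, to 6490 to 7095 and to 6884 to 7218, sums carried by bright probes such as that of Alb. Of the 9 hepatocyte markers 1 was called higher (Apoa1) and 2 lower (Cps1 and Asgr1), with log2 fold changes of 0.90, -1.48 and -0.86. Neutrophil markers summed to 148 to 168 and to 130 to 181, with 0 of 5 tested genes called by limma (1 at an unadjusted p under 0.05, and 0 by the methods' t-test). Most of that sum came from 1 probe of Csf3r. In the tumors S100a8 read 3.37, 0.912 and 0.732 and S100a9 read 12.9, 4.51 and 2.80. The normal livers had at most 1.01 and 4.06. Ly6g and Camp had log2 fold changes of -0.45 and -0.74. T and NK cell markers summed to 66.0 to 70.0 and to 141 to 245, but the sum rested on a single probe of Cd4, while Cd8a and Il7r were not well above background on any array. The other probe of Cd4, dim and not tested, went the other way, with 0.160, 0.202 and 0.157 in the normal livers and 0.117, 0.131 and 0.122 in the tumors. Cd3e had a log2 fold change of 0.03 and was not called. B and plasma cell markers summed to 5.25 to 6.51 and to 6.86 to 9.27, with Jchain called higher. Mesothelial markers summed to 0.868 to 1.27 and to 0.133 to 1.28, cholangiocyte markers to 2.59 to 3.35 and to 2.22 to 2.48, and dendritic cell markers to 222 to 249 and to 231 to 269, almost all of it from 1 probe of Siglech that its other probes did not match. The summed stellate and Kupffer markers were thus lower in each tumor than in each normal liver, opposite to Il33 and Il1rn, and the part of the cell types in the changes of the family was not tested.

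**Figure D4:**
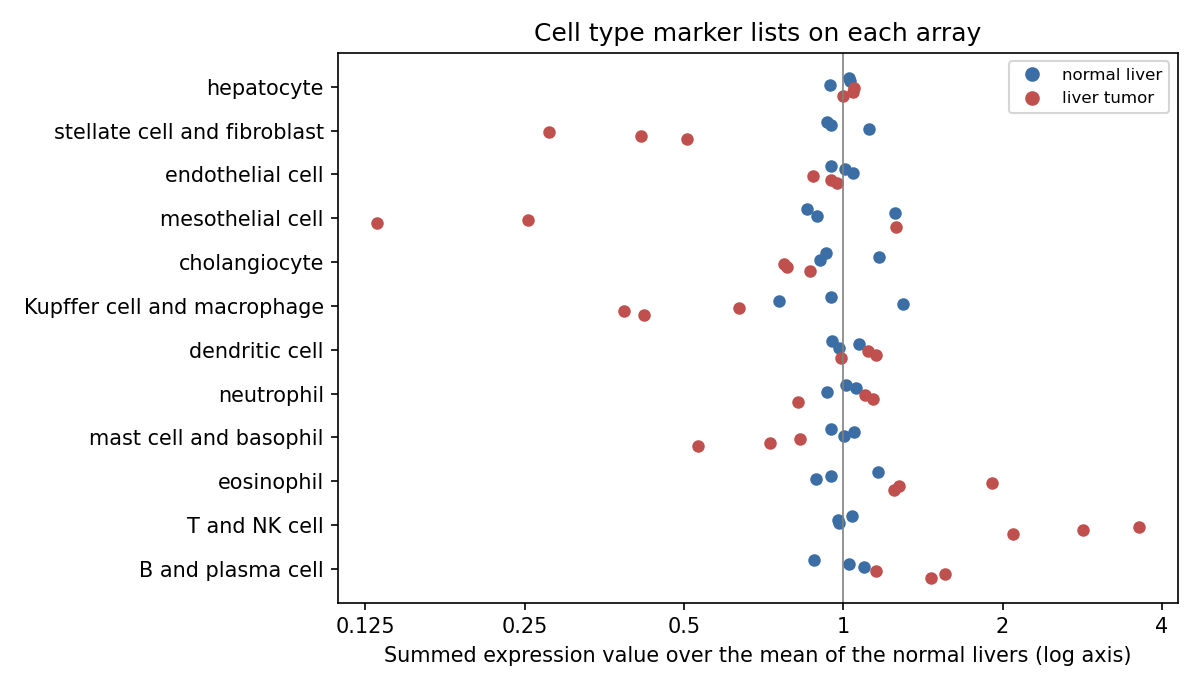
Summed expression value of each cell type marker list on each array, divided by the mean of the normal livers (log axis), for normal livers in blue and liver tumors in red. The stellate and Kupffer lists lie lower in each tumor, the hepatocyte and endothelial lists lie near 1, and the T and NK cell list, which rests on a single Cd4 probe, lies higher.

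The pattern of Il33 over the 6 arrays was compared with that of the other genes well above background on all of them, 16482 with Il33 included. The genes with the highest Pearson correlation on the log2 scale were Enc1 (0.9995), Fndc10 (0.998), Sptan1 (0.998), Ces2e (0.998) and Ccdc125 (0.998). Enc1, an actin-binding protein, read 0.441, 0.636 and 0.400 in the normal livers and 3.95, 3.68 and 2.46 in the tumors, and like Il33 it was highest in normal liver 2 and in tumor 1. All 5 genes were higher in each tumor. The arrays fall into the groups of normal livers and tumors, so the correlation mostly reflects the difference between them, and 829 genes had one above 0.95. Mst1r, the receptor the study followed, read 5.48, 3.98 and 4.77 in the tumors and was dim in the normal livers, a rise of at least 36.2-fold by the same bound (adjusted p = 9.15e-06 by limma). Tumor 1 was highest and tumor 2 lowest in Mst1r, while tumor 3 was lowest in Il33 and Il1rn.

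**Figure D5:**
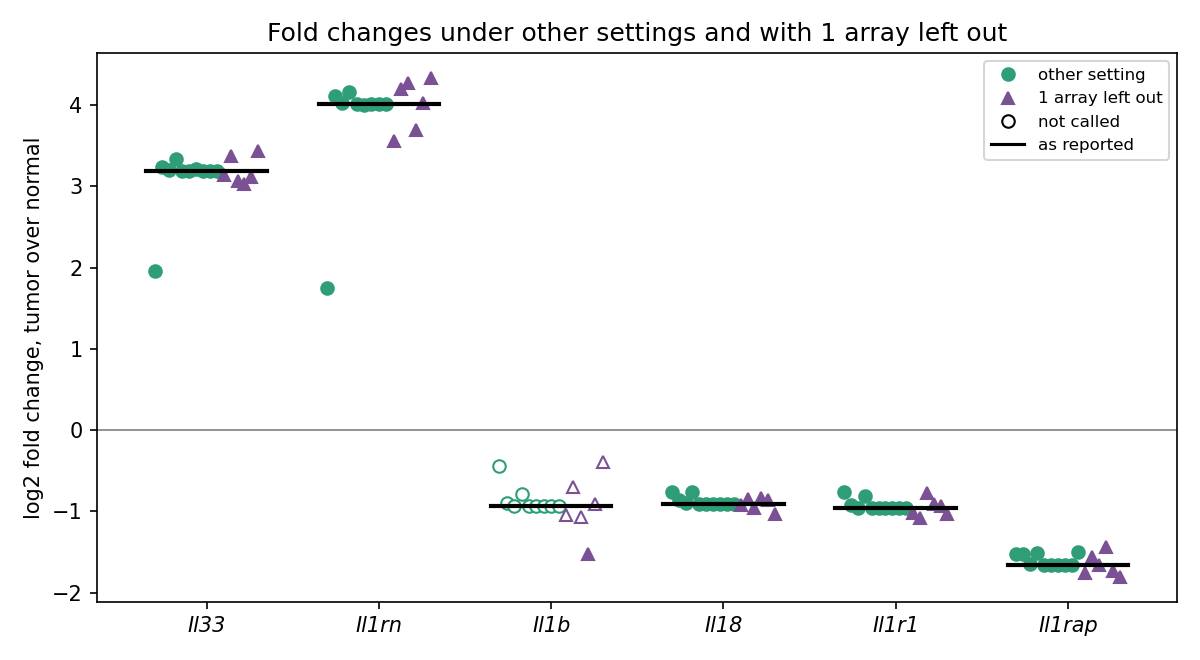
Log2 fold change of the 6 tested members as reported (black lines), under the other settings of processing and of the limma fit (green circles) and with 1 array left out (purple triangles), with open symbols where the gene was not called. Il33 and Il1rn drop to 1.96 and 1.75 with normexp, and Il1b is called with tumor 1 left out, at -1.52.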

How the data were processed

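RNA of 3 normal livers and 3 liver tumors was measured on 6 arrays. The authors deposited the processed signal intensity of each spot, background subtracted by Feature Extraction (version 10.7.3.1 per the file headers and 12.0.3.1 in the submitters' processing notes), and a table of the ratio of that signal to the 75th percentile of the array over all spots. From the deposited intensities, log2 of the signal minus log2 of that percentile was computed, control and outlier spots were left out, and the spots of a probe were averaged. A probe was tested if all 3 arrays of either group had it well above background, which held for 24898 of 55681 probes. Tests were two-sided and used lmFit and eBayes of limma 3.58.1 (R 4.3.3), and p-values were adjusted by Benjamini-Hochberg over all tested probes, with a threshold of 0.05. Tables, exact permutation tests and figures were made in Python 3.11.15 (scipy 1.17.1, numpy 2.4.6, pandas 2.3.3, matplotlib 3.10.9).

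Where a gene had several probes, the brightest of its tested probes over the 6 arrays, by mean log2, stood for it (of all its probes where none was tested). Probes were named through RefSeq annotation of GRCm38.p6 by accession (27235 probes), symbol (3581) or synonym (565), and the name of the array design was kept for 24300. The interleukin-36 genes carry older symbols there (Il1f6, Il1f8, Il1f9 and Il1f5 for Il36a, Il36b, Il36g and Il36rn). Sequences are those of the RefSeq promoter table, and probe positions are those of the array design on mm9. Every column of the table of ratios belonged to a sample. The number of arrays limits the precision.

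The members and the lists were chosen with earlier results of these data known. Named are all members and other family genes, up to 4 called genes with the largest change of each further list, Mst1r, and the 5 genes most correlated with Il33. A pair of genes that this rule takes is not reported here. In simulated data over 24886 probes, 147 of 200 changed probes were recovered, with 12 false calls. The simulation had far fewer changed probes than were called in the data, independent normal noise and no effect of the slide. Its figures therefore do not give the error rates of these results. Alternatives were normexp with an offset of 50, quantile normalization, the percentile over non-control spots, spike-in scaling, no filter and a stricter filter, the table of ratios, the mean of a gene's probes, a trend in eBayes, a block for the replicate number, a minimum change of 2-fold, the methods' t-test in unpaired and paired form on linear values, and leaving out each array.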

Additional observations from a re-analysis of the deposited data

How the results depend on the processing

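The 5 called genes of the family kept their direction under all alternatives run. Il33, Il1rn, Il18, Il1r1 and Il1rap were all called with normexp, quantile normalization, the percentile over non-control spots, spike-in scaling, no filter, the table of ratios, the mean over a gene's probes, the trend and with any 1 array left out. Il1rn could not be tested with the stricter filter. With a minimum change of 2-fold, 3478 probes, 3 members, 21 pathway genes and 14 marker genes were called, of 8238, 5, 33 and 24 without it. By the methods' t-test, unpaired and Benjamini-Hochberg adjusted, the counts were 5263 probes, 3 members (Il1rn and Il1r1 lost), 20 pathway genes and 14 marker genes, and without adjustment 10070 probes and 5 members. Without the filter on dim probes, 4674 probes, 18 pathway genes and 6 members were called, Il18r1 added. With spike-in scaling, 4991 probes were called, of which 59.4% were higher, against 37.8% as reported, and the median log2 fold change over probes was 0.02 against -0.13. No called gene of the lists changed sign with quantile normalization, spike-in scaling or normexp. With each array left out in turn, the count of probes was 4965 to 7116, lowest without normal liver 2, and the members called were 5 to 6, with Il1b added without tumor 1.

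Normal livers and tumors share replicate numbers, and the paper's methods name a paired t-test. The deviations of same-numbered samples correlated at 0.069, 0.13 and 0.051, and those of differently numbered samples at -0.14 to 0.055. All these correlations are low and the labels name no animal, so the numbers were not taken to pair the samples. A pairing is not excluded by this. With the replicate block, limma called 7020 probes and the same 5 members. The methods' t-test in its paired form called 7420 probes, 4 members (Il1rn lost), 25 pathway genes and 18 marker genes before adjustment, and 0 probes, 0 members, 0 pathway genes and 0 marker genes after it.

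Dim signals limit what can be said of Il1a, Il1r2, Il1rl1 and Il18r1, for which the arrays give no level. The size of the changes of Il33 and Il1rn also depends on the background correction, as their values in the normal livers are near background.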
